A study of Homo sapiens with 24 samples.

Results

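The CC chemokine genes are a family of small secreted proteins, and 9 of them were followed here in human fibroblasts: CCL2, CCL7, CCL8, CCL11, CCL13, CCL3, CCL5, CCL20 and CCL26. They are 9 of the 25702 gene identifiers counted in every sample. The list was chosen by gene symbol, and CCL2 was placed on it because its RNA level differed between cells with and without an HMGA1 hairpin, so the hairpin differences of CCL2 are given below as a description, without a test. The remaining genes were taken as members of the same family, and the question was whether the chromosome 17 neighbours of CCL2 moved with it. RNA-seq counts of 24 samples of IMR90 cells, a line of diploid fibroblasts from fetal lung, were used, with 6 biological replicates in each of 4 groups.

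All 24 samples carried ER:HRAS(G12V), an oncogenic HRAS fused to the oestrogen receptor and introduced by retrovirus, which is switched on by 4-hydroxytamoxifen (4OHT). Growing cells carried this construct and the MSCV vector and received no agent. shHMGA1 cells carried it with MSCV miR30 shHMGA1, a hairpin against HMGA1, and also received no agent. RIS cells carried the MSCV vector and were treated for 6 days with 4OHT, which brings about RAS-induced senescence. RIS+shHMGA1 cells carried the hairpin and were given 4OHT for the same 6 days. The labels name a single hairpin construct and an MSCV vector as its control. All samples were bulk cultures, in which fewer cells expressing a gene and less RNA per expressing cell cannot be told apart.

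CC chemokines carry a pair of adjacent cysteines near the amino terminus and draw leukocytes along a gradient by binding G protein-coupled receptors. CCL2, CCL7, CCL8 and CCL13 are the monocyte chemoattractant proteins, which act mainly through CCR2 and in part through CCR1 and CCR3, while CCL11 and CCL26 are eotaxins that act through CCR3 on eosinophils. CCL3 and CCL5 bind CCR1, and CCL20 binds CCR6. Stromal cells make several of them after IL-1 or TNF stimulation through NF-κB, and they are part of the senescence-associated secretory phenotype. HMGA1 is a chromatin protein that binds AT-rich DNA and contributes to senescence-associated heterochromatic foci.

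Positions are given on GRCh37, the build to which the reads were mapped. CCL2 (Entrez 6347) lies on the plus strand of chromosome 17 at 32582293-32584227. CCL7 (6354) begins 13.0 kb after its end, at 32597240-32599261, and is followed by CCL11 (6356) at 32612761-32615353, CCL8 (6355) at 32646454-32648421 and CCL13 (6357) at 32683499-32685629. The 5 genes are all on the plus strand, and the last of them starts 99.3 kb from CCL2. CCL5 (6352, at 34198495-34207797) and CCL3 (6348, at 34415602-34417515) lie on the minus strand of the same chromosome, 1614 and 1831 kb from CCL2. CCL20 (6364) is on chromosome 2 at 228670455-228682280 and CCL26 (10344) on chromosome 7 at 75398851-75419214. All 9 are annotated as protein-coding genes.

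The 250 bases before the annotated start are shown for 5 members, to set the neighbours of CCL2 that were read at very different levels beside CCL3 and CCL20. They were taken from a table of RefSeq promoters on GRCh38.p14 that held 6 of the 9 members, and are written 5′ to 3′ on the strand of the gene, with motif matches in capitals. The sequences are those at chr17:34269971-34270220 (plus strand), chr17:34319185-34319434 (plus), chr17:34356230-34356479 (plus), chr17:36090144-36090393 (minus, the most upstream of 3 annotated starts) and chr2:227813592-227813841 (plus).
CCL7: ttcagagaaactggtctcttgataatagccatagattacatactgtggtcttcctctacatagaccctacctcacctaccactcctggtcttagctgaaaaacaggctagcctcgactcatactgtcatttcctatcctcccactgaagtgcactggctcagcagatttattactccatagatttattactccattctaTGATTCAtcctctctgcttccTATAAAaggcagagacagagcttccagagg
CCL8: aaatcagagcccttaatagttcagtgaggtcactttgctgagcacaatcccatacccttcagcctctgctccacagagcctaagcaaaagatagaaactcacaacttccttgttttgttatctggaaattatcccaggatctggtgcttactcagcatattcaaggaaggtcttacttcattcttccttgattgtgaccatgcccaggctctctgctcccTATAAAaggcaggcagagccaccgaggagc
CCL13: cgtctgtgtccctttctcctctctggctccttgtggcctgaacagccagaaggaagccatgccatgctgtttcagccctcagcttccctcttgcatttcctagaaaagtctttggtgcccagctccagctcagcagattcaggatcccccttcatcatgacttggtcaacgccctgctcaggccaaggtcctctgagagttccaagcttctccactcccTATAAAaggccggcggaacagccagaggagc
CCL3: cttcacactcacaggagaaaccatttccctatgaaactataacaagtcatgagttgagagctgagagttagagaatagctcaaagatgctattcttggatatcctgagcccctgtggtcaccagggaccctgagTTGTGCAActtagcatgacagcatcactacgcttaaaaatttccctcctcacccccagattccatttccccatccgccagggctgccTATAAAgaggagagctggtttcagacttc
CCL20: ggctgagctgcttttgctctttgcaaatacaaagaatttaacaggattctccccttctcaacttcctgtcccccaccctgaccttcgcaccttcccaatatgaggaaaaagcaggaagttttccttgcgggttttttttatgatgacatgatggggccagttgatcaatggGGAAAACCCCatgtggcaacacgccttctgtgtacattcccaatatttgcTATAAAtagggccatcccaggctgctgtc

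All 5 held TATAAA, its first letter 29 to 31 bases before the start. Among 35116 promoters of the same length, 10.7% held TATAAA on either strand. CCL7 also held the AP-1 motif TGANTCA 51 to 45 bases before the start, which 6.57% of all promoters held and which these letters match on both strands. CCL20 held a κB motif 79 to 70 bases before the start, on the minus strand, as did 9.96% of all promoters. CCL3 held the C/EBP motif TTNNGNAA 116 to 109 bases before the start, which was found in 33.2% of all promoters. CCL8 and CCL13 held none of the κB, AP-1 and C/EBP motifs on either strand of this window. In CCL26, whose sequence is not shown, 3 C/EBP positions and no TATAAA were found. No capitals in the printed sequences overlap. These matches describe letters and were not tied to binding of a factor in these cells.

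HMGA1, the target of the hairpin, was read at 639 to 861 CPM (counts scaled to a common library size after TMM normalisation) in growing cells and at 641 to 786 CPM in RIS. It stood at 54.4 to 143 CPM in shHMGA1 and at 60.0 to 262 CPM in RIS+shHMGA1, with no overlap between vector and hairpin samples. The log2 fold change was −2.76 (SE 0.31, quasi-likelihood test in edgeR, adjusted p = 1.92e-05) without 4OHT and −2.05 (SE 0.30, adjusted p = 0.000648) with it. In RIS+shHMGA1, replicates 5 and 6 had 60.0 and 75.1 CPM of HMGA1 and the remaining 4 replicates 197 to 262 CPM. Total counts ranged from 8698070 to 23103424 per sample. The sample labelled growing replicate 4 and the sample labelled RIS replicate 2 stood apart from their groups. The summed CPM of 5 proliferation markers (MKI67, TOP2A, CCNA2, CCNB1, CDK1) was 94.5 in growing replicate 4 against 418 to 714 in the other growing samples, and 553 in RIS replicate 2 against 59.1 to 92.2 in the other RIS samples. Both had the HMGA1 level of vector cells (667 and 713 CPM). Whether the 2 were exchanged was not tested. They were kept in their labelled groups, and results that rest on them are given with and without them.

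The 9 genes differed widely in abundance. CCL3, CCL2 and CCL20 were read in all 24 samples, with 20348, 12801 and 12263 reads in all. CCL7 had 259 reads in 14 samples, with a highest count of 61. CCL26 had 152 reads over the 24 samples and never more than 12, CCL5 had 36 and never more than 5, and CCL8 had 9 reads in 7 samples and never more than 2. CCL11 and CCL13 had 0 reads in every sample, which allows up to 0.0107 CPM over the series (3 counts over all reads, counting error only). The filter on low counts left 4 members for testing, CCL2, CCL7, CCL3 and CCL20, and CCL8, CCL11, CCL13, CCL5 and CCL26 were too low to test. The filter asked for about 0.943 CPM in 6 samples. Of the 11 untreated samples other than growing replicate 4, none reached it for CCL7, 4 did for CCL3, 9 for CCL20 and all 11 for CCL2. CCL7 and CCL3 thus passed only with the help of treated samples or growing replicate 4, so that their being high in treated cells was in part a condition of being tested.

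CCL2 recruits monocytes and is a common part of the secretory phenotype of senescent fibroblasts. Its level in growing cells had a lowest, median and highest value of 8.65, 12.3 and 32.0 CPM, where the highest was growing replicate 4 and the next highest 13.9. In shHMGA1 the 3 values were 20.6, 30.8 and 39.2 CPM. In RIS they were 9.25, 24.3 and 28.9 CPM, where the lowest was RIS replicate 2 and the next lowest 19.4. In RIS+shHMGA1 they were 65.2, 108 and 257 CPM. All 6 RIS+shHMGA1 samples were above all 18 samples of the other groups, and shHMGA1 overlapped growing only through growing replicate 4.

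The difference in CCL2 with the hairpin, for which it was put on the list, was present with and without 4OHT. Its fitted log2 difference between shHMGA1 and growing was 1.02 (SE 0.35), and 1.39 (SE 0.29) without the 2 departing samples. With 4OHT, between RIS+shHMGA1 and RIS, it was 2.67 (SE 0.36), a 6.37-fold difference, and 2.51 (SE 0.29) without them. The difference between these log2 differences was 1.65 (SE 0.49) with all samples and 1.12 (SE 0.40) without the 2. By mean CPM CCL2 ranked 8088th of the 13356 tested genes in growing cells, 5694th with the hairpin, 6669th in RIS and 1505th with both.

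Within RIS+shHMGA1 the level of CCL2 was uneven. Replicates 5 and 6 had 224 and 257 CPM and the remaining 4 had 65.2 to 111 CPM. These are the same replicates 5 and 6 in which HMGA1 was lowest among treated hairpin samples. In shHMGA1, replicates 5 and 6 had HMGA1 at 58.1 and 54.4 CPM against 98.7 to 143 CPM in the other 4, but CCL2 at 34.3 and 30.1 CPM, inside the range of the other 4. Without replicates 5 and 6 of every group, the log2 difference of CCL2 between RIS+shHMGA1 and RIS was 2.09 (SE 0.42). The part of the HMGA1 level in the spread of CCL2 was not tested.

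**Figure D1:**
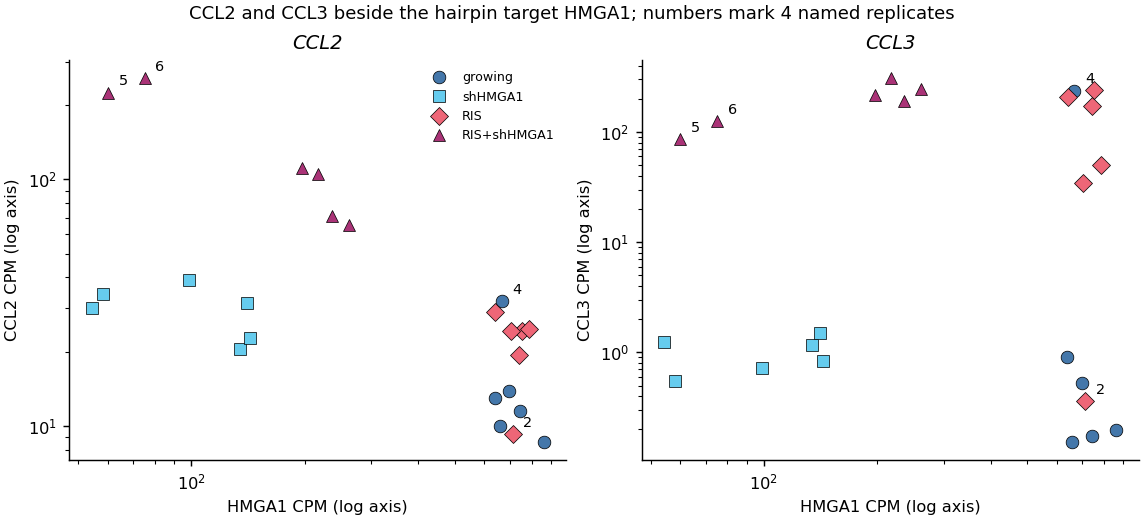
CCL2 (left) and CCL3 (right) against HMGA1, in CPM on log axes, with a point for each of the 24 samples. Numbers mark RIS+shHMGA1 replicates 5 and 6, growing replicate 4 and RIS replicate 2, and replicates 5 and 6 have the highest CCL2 (224 and 257 CPM) and the lowest CCL3 (86.1 and 124 CPM) of their group.

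In the hairpin cells, 4OHT raised every member that could be tested. The log2 fold change between RIS+shHMGA1 and shHMGA1 was 2.22 (SE 0.36) for CCL2, with a quasi-likelihood adjusted p of 0.000199. All 4 tested members passed the thresholds (an FDR below 0.01 together with a log2 fold change beyond 0.58 in either direction) and were higher, where 39.1% of all tested genes passed in either direction and 19.6% were higher. The groups did not overlap in any of the 4, nor in 43.4% of all tested genes. The fit without the 2 departing samples, which belong to neither group but enter the shared spread, called 44.4% of genes and all 4 members. Because CCL7 and CCL3 would not have been tested without samples in which they were high, the count of 4 is no measure of the family. Without replicates 5 and 6 of every group none of the 4 passed, with adjusted p of 0.0143 to 0.0161, and 0 of all tested genes passed either, while the log2 fold changes were 1.60 for CCL2, 6.72 for CCL7, 7.79 for CCL3 and 6.08 for CCL20.

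CCL3, a ligand of CCR1, had the largest fitted fold change of the 4 in hairpin cells. It was listed at 0.155, 0.360 and 237 CPM in growing cells (lowest, median, highest), at 0.554, 1.00 and 1.49 CPM in shHMGA1, at 0.363, 111 and 242 CPM in RIS and at 86.1, 203 and 307 CPM in RIS+shHMGA1. Growing replicate 4 gave the 237 CPM, against at most 0.916 CPM in the other growing samples, and RIS replicate 2 the 0.363 CPM, against at least 34.3 CPM in the others. The log2 fold change in hairpin cells was 7.61 (SE 1.68, adjusted p = 0.000915 in the quasi-likelihood test). In RIS+shHMGA1, replicates 5 and 6, the highest in CCL2, were the lowest in CCL3, with 86.1 and 124 CPM against 190 to 307 CPM in the other 4. In RIS too, replicates 5 and 6 had less CCL3, at 50.3 and 34.3 CPM against 171 to 242 CPM in replicates 1, 3 and 4. Of the 731 stretches of 50 bases in the CCL3 transcript, 9.85% also occur in its near-identical copies CCL3L1 or CCL3L3, so that its counts are uncertain to that extent. CCL3L1 had 41 reads in all and CCL3L3 had 1.

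CCL20, the ligand of CCR6, attracts dendritic cells and lymphocytes. It was read at 0.357, 1.57 and 123 CPM in growing cells (lowest, median, highest), at 0.581, 1.63 and 2.18 CPM in shHMGA1, at 1.27, 83.8 and 113 CPM in RIS and at 94.0, 107 and 123 CPM in RIS+shHMGA1. Without growing replicate 4 the highest growing value was 2.26 CPM, and without RIS replicate 2 the lowest RIS value was 73.2 CPM. The 6 RIS+shHMGA1 samples were close to each other (107 ± 13.9 CPM, mean ± SD), and replicates 5 and 6 were not set apart in this gene. The log2 fold change in hairpin cells was 6.05 (SE 1.20), with an adjusted p of 0.000454 in the quasi-likelihood test.

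CCL7, the nearest neighbour of CCL2 and a ligand of CCR1, CCR2 and CCR3, was far less abundant. Growing cells had 0 reads in 5 samples and 20 reads in replicate 4, and shHMGA1 had 2 reads in all. In RIS it was read at 0, 0.847 and 2.33 CPM (lowest, median, highest), with the 0 in RIS replicate 2, and in RIS+shHMGA1 at 1.89, 2.30 and 5.30 CPM. The pooled rate was 116 times as high in RIS+shHMGA1 (171 reads) as in shHMGA1 (2 reads), with an exact 95% interval of 31.6 to 964 for counting error only. The fitted log2 fold change was 6.35 (SE 1.20, adjusted p = 0.000331, quasi-likelihood test), against a group with 2 reads. Per kilobase of transcript, the mean level in RIS+shHMGA1 was 250.2 CPM for CCL3, 187 CPM for CCL2, 129 CPM for CCL20 and 3.70 CPM for CCL7.

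In the vector cells the effect of 4OHT depended on growing replicate 4 and RIS replicate 2. With all 24 samples, the log2 fold change between RIS and growing was 0.57 (SE 0.35) for CCL2, 1.76 (SE 0.94) for CCL7, 1.58 (SE 1.23) for CCL3 and 1.85 (SE 0.97) for CCL20. None of the 4 passed, with adjusted p of 0.184 to 0.374 in the quasi-likelihood test, and 0% of all tested genes passed, although 4407 had an unadjusted p under 0.05. The groups overlapped in all 4 members, and were apart in 0.367% of all tested genes. DESeq2 called 829 genes in this comparison and none of the members, with no p-value for CCL20.

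When both departing samples were left out, all 4 tested members rose with 4OHT in vector cells, where 39.7% of all tested genes passed in either direction. The 2 samples stood apart in these same genes, so the small p-values rest in part on leaving them out. For CCL7 and CCL3, being high in treated cells was also in part a condition of being tested. The log2 fold changes were 1.10 (SE 0.30, adjusted p = 0.00292) for CCL2, 8.53 (SE 0.62, adjusted p = 3.55e-11) for CCL3 and 6.13 (SE 0.28, adjusted p = 8.31e-15) for CCL20 in the quasi-likelihood test. CCL7 had 66 reads in 5 RIS samples and 0 in 5 growing samples (quasi-likelihood fit: adjusted p = 3.67e-06). Its rate in RIS was 30.3 times a floor of 3 counts over the growing group, leaving out the counting error of the 66 reads. The 95% interval of the CCL2 change, from 0.47 to 1.73 on the log2 scale, lay below those of CCL3 (7.22 to 9.84) and CCL20 (5.54 to 6.72).

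**Figure D2:**
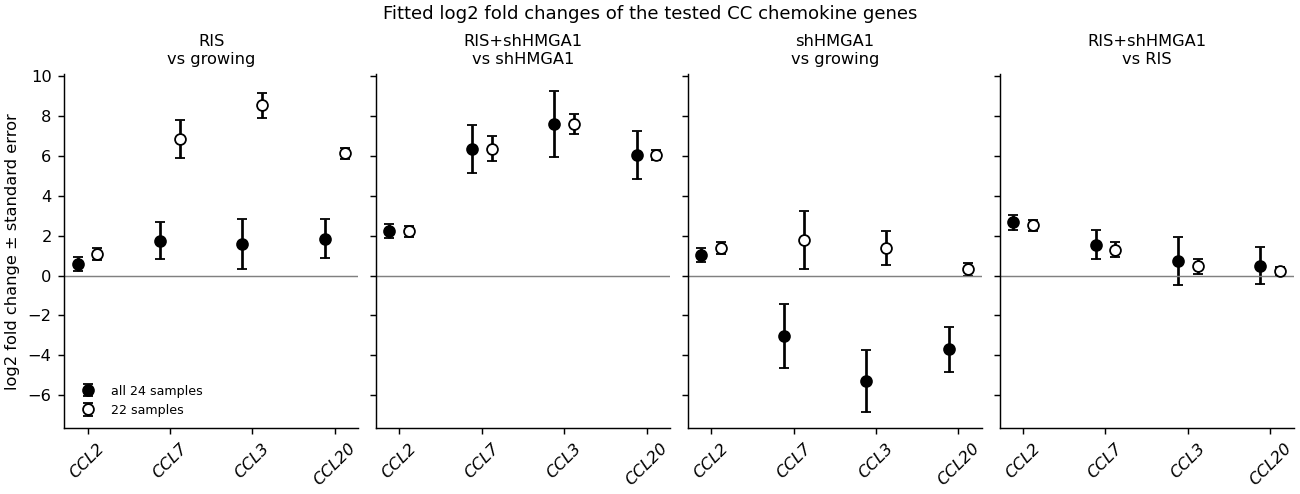
Fitted log2 fold changes (points) and standard errors (bars) of CCL2, CCL7, CCL3 and CCL20 in 4 comparisons, with all 24 samples (filled) and with 22 samples, growing replicate 4 and RIS replicate 2 left out (open). The values against growing cells move with these 2 samples, and CCL7, CCL3 and CCL20 change sign between shHMGA1 and growing. The open CCL7 value there rests on 2 reads against 0.

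None of CCL7, CCL3 and CCL20 passed the test for an effect of the hairpin in treated cells. Between RIS+shHMGA1 and RIS the log2 fold change of CCL7 was 1.55 (SE 0.74, 95% interval 0.0083 to 3.10, adjusted p = 0.0963 in the quasi-likelihood test). It was 0.73 (SE 1.20, interval −1.77 to 3.23, adjusted p = 0.636) for CCL3 and 0.50 (SE 0.93, interval −1.43 to 2.43, adjusted p = 0.68) for CCL20. Among all tested genes 2.55% passed. All 3 overlapped between the groups, while 13.2% of all tested genes did not, nor did CCL2, which was listed for its hairpin difference.

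The intervals were narrower without the 2 departing samples. CCL7 had a log2 fold change of 1.29 (SE 0.38, interval 0.50 to 2.08), with an adjusted p of 0.0125 that missed the threshold in the quasi-likelihood test. CCL3 then had 0.47 (interval −0.30 to 1.24) and CCL20 0.24 (interval −0.17 to 0.64). None of the 3 passed, where 12.5% of all tested genes did. With the replicate number added to this fit, an alternative chosen after seeing the data, CCL7 passed, at 1.42 (SE 0.25, adjusted p = 0.000674). In that fit 1938 of all tested genes passed. In pooled reads, CCL7 was 2.47 times as high in RIS+shHMGA1 as in the 5 RIS samples (171 against 66 reads, exact 95% interval 1.85 to 3.34 for counting error only).

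Without 4OHT, the hairpin comparison of these 3 genes was set by growing replicate 4. Between shHMGA1 and growing the log2 values were −3.04 (SE 1.61, adjusted p = 0.426) for CCL7, −5.29 (SE 1.56, adjusted p = 0.129) for CCL3 and −3.71 (SE 1.13, adjusted p = 0.139) for CCL20 in the quasi-likelihood test. Leaving out both departing samples made them positive, at 1.80 (SE 1.45), 1.39 (SE 0.84) and 0.31 (SE 0.33), with adjusted p of 0.217 to 0.492. The CCL7 value rests on 2 reads in shHMGA1 against 0 in the 5 other growing samples, so neither its size nor its sign was measured. None of the 3 passed in either fit, where 0.27% and 2.59% of all tested genes did. The groups overlapped in all of them, and were apart in 1.3% of all tested genes.

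Whether the hairpin difference itself differed with 4OHT was asked with the interaction of the fit. CCL7, CCL3 and CCL20 had interaction terms of 4.60, 6.02 and 4.20 on the log2 scale, each with an adjusted p of 0.426 in the quasi-likelihood test, and 0% of all tested genes passed. At an unadjusted p under 0.05 the test counted 1371 genes, and DESeq2 called 5, none of them a member. In the fit without both departing samples the terms were −0.51, −0.92 and −0.07, and 0.00745% of all tested genes, which is 1 gene, passed. The CCL7 term includes a comparison of 2 reads in shHMGA1 with 0 in growing cells.

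CCL8, CCL11 and CCL13 lie between 28.5 and 99.3 kb from CCL2 and could not be followed. CCL8, a monocyte chemoattractant, had 7 of its 9 reads in RIS+shHMGA1, in 5 of the 6 samples, and 1 each in growing replicate 4 and a RIS sample. Its pooled rate in RIS+shHMGA1 was 3.16 times a floor of 3 counts over shHMGA1, where it had 0 reads. This ratio leaves out the counting error of the 7 reads. Against the 5 RIS samples the ratio was 6.68, with an interval of 0.859 to 301 that includes no difference. For CCL11 and CCL13 at 0 reads, the limit of 3 counts over the group was 0.0531 CPM in RIS+shHMGA1 and 0.0366 CPM in growing cells. A change of either with the hairpin or 4OHT that stayed below such limits was not detectable at this depth.

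CCL5, a ligand of CCR1 and CCR3 that is made mostly by lymphocytes, had 12, 7, 11 and 6 reads in growing, shHMGA1, RIS and RIS+shHMGA1 cells. CCL26, an eotaxin of epithelial and endothelial cells, had 41, 35, 30 and 46 reads in the same order. Its level was 0.174 to 1.29 CPM in growing cells, 0.332 to 0.673 CPM in shHMGA1, 0.272 to 0.844 CPM in RIS and 0.492 to 1.14 CPM in RIS+shHMGA1. The 4 groups overlapped in both genes.

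Around CCL2, 56 counted genes lie within 2 Mb on either side, and 22 of them besides CCL2 were tested. CCL7, CCL3 and CCL4 are among these, and the other 19 are not chemokine genes. Of the 19, none passed between RIS+shHMGA1 and RIS or between shHMGA1 and growing, where 2.55% and 0.27% of all tested genes did. Their median log2 fold changes were 0.0024 and 0.0006, beside medians of −0.064 and −0.033 over all tested genes. The largest value with 4OHT was that of CCT6B, 1.15 (SE 0.34, adjusted p = 0.0197 in the quasi-likelihood test), a chaperonin subunit 671 kb from CCL2. With both departing samples left out, 1 of the 19 passed between RIS+shHMGA1 and RIS, where 12.5% of all tested genes did.

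Under 4OHT in hairpin cells the window was also compared. Of the 19, 3 rose and 4 fell between RIS+shHMGA1 and shHMGA1, near the 39.1% called among all tested genes. MYO1D, an unconventional myosin, rose by 3.15 (SE 0.61), RASL10B by 2.45 (SE 0.35) and CCT6B by 1.22 (SE 0.34) on the log2 scale. SLFN11, which blocks replication in stressed cells, fell by 2.01 (SE 0.41), RAD51D, of homologous recombination, by 1.18 (SE 0.20), the adaptor subunit AP2B1 by 0.85 (SE 0.17) and the ubiquitin ligase RFFL by 0.62 (SE 0.19). Their adjusted p ranged from 0.000183 to 0.00816 in the quasi-likelihood test. Besides CCL7, the tested gene nearest to CCL2 was CCT6B, so that no tested gene that is not a chemokine lay closer than 671 kb.

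Of 19 further CC ligands, CCL4 alone was tested. It is the neighbour of CCL3, and it passed the filter through the same treated samples. It had 21 reads in growing replicate 4 and 0 in the other growing samples, 1 read in shHMGA1, and 1.98, 2.79 and 4.26 CPM (lowest, median, highest) in RIS+shHMGA1. Its log2 fold change was 6.91 (SE 1.28, adjusted p = 0.00031, quasi-likelihood test) between RIS+shHMGA1 and shHMGA1 and 0.75 (SE 0.70, adjusted p = 0.395) between RIS+shHMGA1 and RIS. In CCL4, 22.7% of the stretches of 50 bases also occur in CCL4L1 or CCL4L2.

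The receptors of these ligands were mostly not read. CCR2, the main receptor of CCL2, had 0 reads in all samples, CCR6 had 4 and CCR3 had 1. Of 14 CC receptors, 3 were tested. CCR1 passed the filter only through treated samples and growing replicate 4, and ACKR4 passed through shHMGA1, so the directions of both were in part a condition of being tested. CCR1, a receptor of CCL3, CCL5 and CCL7, rose by 2.50 on the log2 scale (SE 0.65) between RIS+shHMGA1 and shHMGA1, to a median of 3.28 CPM. The atypical receptor CCRL2 rose by 1.88 (SE 0.40), and ACKR4, a scavenging receptor for CC chemokines, fell by 4.07 (SE 0.62). None of the 3 passed between RIS+shHMGA1 and RIS or between shHMGA1 and growing, where 2.55% and 0.27% of all tested genes did. Without the 2 departing samples ACKR4 passed in the latter, at 1.48 on the log2 scale, where 2.59% of all tested genes did.

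Cytokines that induce CC chemokines were listed with their receptors. Of 18 genes 15 were tested, and 7 rose and 2 fell between RIS+shHMGA1 and shHMGA1, where 19.6% of all tested genes rose and 39.1% passed in either direction, with a list median of 0.58 on the log2 scale beside −0.02 over all tested genes. IL1RN, the antagonist of the IL-1 receptor, rose by 4.69 (SE 0.85), IL1B by 4.25 (SE 0.91) and IL1A by 3.69 (SE 0.75). LIF rose by 2.56, IL6 by 2.12, the TNF receptor TNFRSF1B by 1.96 and IFNGR2 by 0.75, while IL1RAP, a subunit of the IL-1 receptor, fell by 0.85 and IL4R by 0.62. Against RIS, 0 of the 15 rose in RIS+shHMGA1 and IL1RAP fell by 0.84, where 2.55% of all tested genes passed. Without the 2 departing samples IL6 also passed in that comparison, at 0.91 on the log2 scale, where 12.5% of all tested genes did.

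Of the transcription factors and inhibitors that act on chemokine promoters, all 20 were tested. Between RIS+shHMGA1 and shHMGA1, 6 rose and 4 fell, beside 39.1% called among all tested genes, with a list median of −0.14. NFKBIZ, a nuclear cofactor of NF-κB, rose by 1.22 (SE 0.23), the inhibitor TNFAIP3 by 1.21 (SE 0.29), CEBPB by 1.10 (SE 0.25), FOS by 0.99, CEBPD by 0.85 and NFKBIA by 0.60. FOSL1 fell by 0.92, IRF1 by 0.79, IKBKG by 0.61 and NFKB2 by 0.60. Against RIS, 1 of the 20 passed in RIS+shHMGA1, beside 2.55% of all tested genes. It was the transcription factor STAT3, which fell by 0.72 (SE 0.16, adjusted p = 0.00669 in the quasi-likelihood test).

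Of 7 factors of the decay of chemokine and cytokine mRNAs, 1 rose and 4 fell between RIS+shHMGA1 and shHMGA1, beside the same 39.1% over all tested genes, with a list median of −0.78. The AU-rich element binding proteins ZFP36L2, ZFP36L1 and ZFP36 fell by 1.17 (SE 0.19), 0.97 (SE 0.21) and 0.88 (SE 0.24), and HNRNPD fell by 0.78 (SE 0.19). The ribonuclease ZC3H12A rose by 1.54 (SE 0.30). Against RIS, none of the 7 passed in RIS+shHMGA1, beside 2.55% of all tested genes. Without the 2 departing samples ZFP36L1 did, at −0.58, beside 12.5% of all tested genes. Of 5 proteases that trim CC chemokines, MMP3 rose by 3.75 (SE 0.84), MMP1 by 2.99 (SE 0.73) and DPP4 by 0.90 (SE 0.24) with 4OHT in hairpin cells, and MMP2 fell by 0.59 (SE 0.17), again beside 39.1% called among all tested genes.

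Most markers of other cell types were read at low levels, but CD68, TEK and KRT18 were not. Of 10 leukocyte markers 2 were tested and 3 had 0 reads, and their summed level was 42.5 to 97.5 CPM in growing cells, 43.6 to 83.9 CPM in shHMGA1, 63.4 to 109 CPM in RIS and 57.2 to 77.4 CPM in RIS+shHMGA1. PTPRC, which all leukocytes express, had 53 reads in the 24 samples, and CD68, which fibroblasts also express, gave 20667. Of 5 endothelial markers, TEK alone was tested, with 17740 reads in all, and fell by 2.42 (SE 0.43) between RIS+shHMGA1 and shHMGA1. Of 6 epithelial markers KRT18 alone was tested, with 10121 reads in all, and did not pass. The 10 fibroblast markers were all tested, with a sum of 14332 to 20307 CPM in shHMGA1 and 4691 to 6072 CPM in RIS+shHMGA1. The 5 proliferation markers summed to 514 to 895 CPM in shHMGA1 and 81.8 to 127 CPM in RIS+shHMGA1, and their part in the chemokine levels was not tested.

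Across the 24 samples the level of CCL3 had a Pearson correlation of 0.97 with that of CCL20, 0.96 with CCL7 and 0.98 with CCL4, in log2 CPM. CCL2 had lower correlations, 0.72 with CCL7, 0.66 with CCL3 and 0.66 with CCL20. The points share 4 groups and a low or high state after 4OHT, so these are descriptions and no test was made. CCL7 ranked 1667th, CCL3 2554th and CCL20 2556th among 13356 tested genes in likeness to CCL2.

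The 10 genes most like CCL2 had correlations of 0.90 to 0.94 over the 24 samples. These genes and the 5 least like CCL2 were picked by this measure. That their group levels follow or oppose those of CCL2 was therefore set by the choice. DNAJC12, a cochaperone, was the highest at 0.94, and EYA4, EYS, PTGR1, ARHGAP24, TSPAN3, PRNP, AKR1C1, FCMR and HSD17B7 followed. AKR1C1, a reductase of steroids and prostaglandins, had median levels of 3.44 CPM in growing cells, 10.5 CPM in shHMGA1, 5.63 CPM in RIS and 31.2 CPM in RIS+shHMGA1. PTGR1, which reduces prostaglandins and leukotrienes, had 67.6, 94.8, 74.6 and 122 CPM in the same order. The 5 genes least like CCL2 were P4HA2, PAPSS2, MSN, CPA4 and COLGALT1, with correlations of −0.95 to −0.92. P4HA2, a collagen prolyl hydroxylase, had medians of 294, 225, 234 and 148 CPM in the same order. The correlation of HMGA1 with CCL2 was −0.64, which ranked 10768th among the 13356 tested genes.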

How the data were processed

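Counts of 24 samples were grouped by the labels of vector, hairpin and agent. Per the labels and methods, the authors trimmed reads with cutadapt 1.10.0, mapped them to hg19 with STAR 2.5.0b and counted them per gene with Rsubread. The deposited values are raw counts for 25702 Entrez identifiers, of which 23696 matched a symbol. The annotation and strand setting of the counting are not given in the sources used here. The members and gene lists were chosen with earlier results of these data known.

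Total counts were 8698070 to 23103424 per sample, so precision of the abundant members was set by the spread between replicates, and of CCL8, CCL5 and CCL26 by counting. CCL7 in treated cells was limited by both. It had 3.00 ± 1.34 CPM (mean ± SD) in RIS+shHMGA1, from 18 to 61 reads a sample, so intervals for counting error only are too narrow for it. The labels call the samples biological replicates, and no 2 agreed within sampling noise. The filterByExpr rule with the groups kept 13356 genes, and library sizes were normalised by TMM. A quasi-likelihood fit of 4 group means over 24 samples (edgeR 4.0.16, limma 3.58.1, R 4.3.3) was used, with Benjamini-Hochberg adjustment over all tested genes, an FDR of 0.01 and an absolute log2 fold change of 0.58 as thresholds. The scripts were tested on simulated data. CPM were computed on TMM library sizes, and log2 CPM with a prior count of 2. Standard errors were the absolute fitted log2 fold change divided by the square root of the F statistic of its test. They are rough where a group had few or no reads, as for CCL7 and CCL4 without 4OHT. Intervals of fold changes (95%) used these standard errors and the t distribution with the residual degrees of freedom. Gene positions were taken from GENCODE on GRCh37.

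Named were all 9 members, HMGA1, CC ligands and receptors that passed the filter, list genes called between RIS+shHMGA1 and shHMGA1 (at most 10 a list), genes within 2 Mb of CCL2 called in any comparison, and the 10 genes most and 5 least like CCL2 by Pearson correlation. Of the marker lists only totals and single markers are given, and CCT6B in the hairpin comparison, PTPRC and CD68 were named after their values were seen. Alternatives were RLE scaling, DESeq2 1.42.0, no filter, a filter of 1 CPM in 6 samples, the replicate number as a block, samples of the contrast only, a prior count of 0.5, and leaving out each replicate number or the 2 departing samples. Leaving out numbers 5 and 6, and the block without the departing samples, were added after seeing the data.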

Additional observations from a re-analysis of the deposited data

Results flagged for a closer look

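Dixon's ratio, the gap between an extreme sample and its nearest neighbour as a share of the whole range of the group, was computed for log2 CPM of the 4 tested members in the 4 groups. It passed Dixon's 95% critical value for 6 samples in 8 of 16 groups, where 0.8 are expected by chance. Growing replicate 4 was far above its group in all 4 genes, with ratios of 0.638 for CCL2 (32.0 CPM), 1 for CCL7 (2.57 CPM), 0.817 for CCL3 (237 CPM) and 0.720 for CCL20 (123 CPM). RIS replicate 2 was far below its group, with 0.650 for CCL2 (9.25 CPM), 0.681 for CCL3 (0.363 CPM) and 0.901 for CCL20 (1.27 CPM). The last was CCL20 in shHMGA1 replicate 1, with a ratio of 0.663 at 0.581 CPM and 7 reads.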

How the results depend on the processing

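Of the results that count called members, 68 values under the alternatives stayed within 1.5 times the reported count and 6 did not. Where the reported count was 0, staying within this limit means only that no member was called. Between RIS and growing, 0 of 4 members were called with all samples, 4 without growing replicate 4 and RIS replicate 2, 4 without these and with the replicate block, and 0 to 3 when each number was left out, the 3 (CCL7, CCL3 and CCL20) without number 4. Between RIS+shHMGA1 and shHMGA1, 4 were called and 4 whichever number was left out, but 0 without numbers 5 and 6, where only 4 samples a group remained and 0 genes of all tested passed. DESeq2 called 1 of 3 members, CCL3, between shHMGA1 and growing, at −5.34, and CCL7 passed between RIS+shHMGA1 and RIS (count 1) with the block and without the 2 departing samples, at 1.42. DESeq2 gave no p-value for CCL20. Signs reversed between shHMGA1 and growing: without the 2 departing samples CCL7, CCL3 and CCL20 were at 1.80, 1.39 and 0.31, with the block besides at 1.74, 1.46 and 0.28, and over the numbers left out the ranges were −3.86 to 1.98, −5.69 to 1.44 and −4.07 to 0.17. Without number 4 they were at 1.98, 1.44 and 0.17. The positive CCL7 values rest on 2 reads in shHMGA1 against 0 in the growing samples other than replicate 4. The interaction reversed too, to −0.51, −0.92 and −0.074 without the departing samples, to −0.32, −0.78 and −0.0080 with the block besides, and over the numbers left out from −0.30 to 5.63 for CCL7, −0.39 to 6.49 for CCL3 and 0.47 to 4.59 for CCL20.

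Deviations of same-numbered samples correlated by 0.175 on average (−0.594 to 0.828 over 36 pairs, 24 of them over 0.1), and those of different numbers by −0.050. Same-numbered samples thus shared part of their deviation. The reported fit did not use the numbers, which entered only as the block alternative. The replicate block called 0 of 4 members between RIS and growing, 4 between RIS+shHMGA1 and shHMGA1, and 0 in the hairpin comparisons and the interaction, and moved the count of all genes called between RIS+shHMGA1 and RIS from 341 to 1637. That count was 1573 with DESeq2, 189 without the filter, 15 without numbers 5 and 6, 1677 without the departing samples, 1938 with the block besides, and 14 to 2205 over the numbers left out. Between RIS and growing it was 0, 829 with DESeq2, 1 with the block, 5331 without the departing samples, 5246 with the block besides, and 0 to 2083 over the numbers left out. Between RIS+shHMGA1 and shHMGA1 it was 5220, and 3037 to 5502 over the numbers left out. Between shHMGA1 and growing it was 36, and 99, 23, 5, 348, 5 and 484 with DESeq2, without the filter, with the samples of the contrast only, without the departing samples, without numbers 5 and 6, and with the departing samples out and the block, and 5 to 25 over the numbers left out. In the interaction it was 0, 5 with DESeq2, 1 without the departing samples or number 4, and 2 with the block besides. The causes were not tested. With a prior count of 0.5, mean log2 CPM of CCL7 moved to −3.55 in growing and −4.06 in shHMGA1. Depth limits CCL7 without 4OHT (0 reads in 5 growing samples and 2 in shHMGA1), CCL8 (at most 7 reads a group), CCL11 and CCL13 (0 reads).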
